A study of Mus musculus with 34 samples.

Results

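The response of Jak2VF macrophages to low-density lipoprotein (LDL) was measured in 6 of the 34 RNA-seq libraries of the series, chosen by their labels alone: 3 libraries of Jak2VF cells given LDL and 3 of Jak2VF cells given vehicle. The cells were bone marrow-derived macrophages (BMDM), made from the marrow of mice 10 to 14 weeks old by 6 days in M-CSF at 10 ng/ml, then replated, rested for 24 h and given LDL at 200 mg/dL or vehicle for 24 h. The Jak2VF mice carried Jak2V617F/WT;Vav-Cre, that is 1 copy of the activating V617F allele of the kinase JAK2, switched on by a Cre recombinase that the Vav promoter drives in blood cells. The comparison groups, with 3 libraries for each treatment, were WT (Vav-Cre alone), Dnmt3aKO (Dnmt3afl/fl;Vav-Cre) and Tet2KO (Tet2fl/fl;Vav-Cre). Every group therefore carried Vav-Cre and was grown in M-CSF. These 24 libraries form the main set, and a further 10 libraries of WT and Tet2KO cells that carry a batch label of their own were not used. The labels state neither the sex of the mice nor how many animals stand behind a group, so the p-values measure the spread between these libraries, which may be technical.

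Macrophages take up LDL through surface receptors and free its cholesterol in lysosomes. As background, a rise of sterol in the endoplasmic reticulum holds back SREBP2, the factor that drives the genes of cholesterol synthesis and uptake, while oxidised sterols switch on the nuclear receptor LXR, whose targets export cholesterol. Oxidised lipid is also known to act on NRF2, the factor of the antioxidant response. JAK2 signals for the receptors of GM-CSF, erythropoietin and thrombopoietin, and the V617F form signals without ligand. It is known from myeloproliferative neoplasms and clonal haematopoiesis.

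Levels are given in CPM, counts scaled to a common library total with TMM factors, and are listed in the order vehicle 1, 2 and 3, then LDL 1, 2 and 3. Differences are log2 fold changes ± SE from edgeR's quasi-likelihood test, and a gene was called at a Benjamini-Hochberg adjusted p under 0.05 over the 19444 genes tested. With LDL, 3532 genes (18.2%) were called in Jak2VF cells, 1642 of them higher (8.44%) and 1890 lower (9.72%). These shares are the background for every count of genes given in the sections that follow.

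The 6 libraries held 34581975 to 43904761 counts, against 24105237 to 43904761 over the main set. The libraries differed in how a transcript's length moved with its level. With protein-coding genes in 5 equal classes of transcript length, the median log2 level of the longest class minus that of the shortest, each relative to the mean of the main set, was -0.64, -0.40 and 0.18 in the vehicle libraries and 0.36, -0.13 and 0.33 in the LDL libraries. Vehicle 3 and LDL 2 stood apart from the libraries of their own groups. The median effect of LDL in Jak2VF cells was -0.22 in the shortest class and 0.25 in the longest, while in WT cells it went from 0.17 to -0.16. A second fit, chosen after the data were seen, removed the length and GC trends from every library. It called 2361 genes higher (12.1%) and 2168 lower (11.1%), and 3064 of the 3532 genes were called in both fits, 0 of them with opposite signs. Without vehicle 3 the number called was 5035, and without LDL 1 it was 2026. Of the 231 called genes whose values were examined one by one, 181 remained called whichever of the 6 libraries was left out. Unless stated otherwise, a gene said to rise or fall below is one of these and was called in the same direction with the trends removed.

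**Figure D1:**
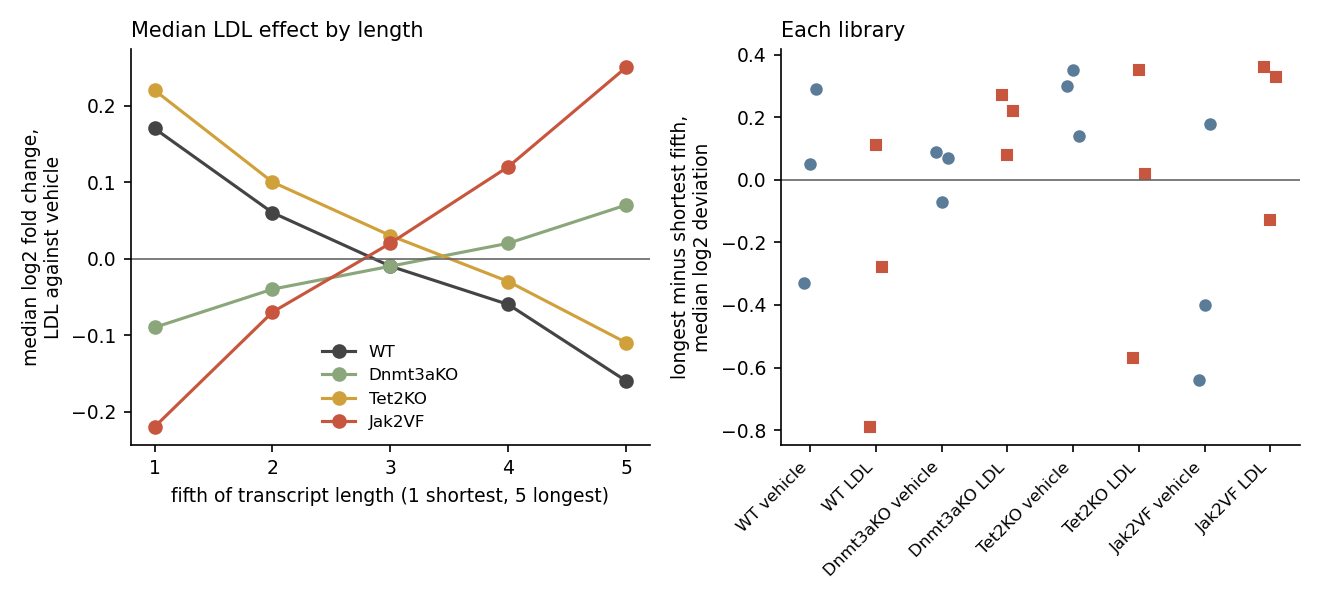
Left, the median log2 LDL effect (y axis) in 5 equal classes of transcript length, from short to long (x axis), with 1 line for each genotype. Right, the longest-minus-shortest difference in log2 level of each library, 1 point per library. The Jak2VF line rises with length from -0.22 to 0.25 and the WT line falls from 0.17 to -0.16, and vehicle 3 and LDL 2 lie apart from the other Jak2VF libraries of their groups.

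The label of the cells was checked first. Jak2 (ENSMUSG00000024789, chr19:29251828-29313080, plus strand, mm10) was at 54.6, 58.6 and 68.2 CPM with vehicle and 74.7, 64.2 and 71.1 with LDL, a difference of 0.21 ± 0.13 that did not pass the test (adjusted p = 0.277). Counts per gene cannot show the V617F change, so this level does not check the genotype. Macrophage markers were high in all 6 libraries: Csf1r, the M-CSF receptor, lay between 1621 and 1888 CPM and Lyz2, lysozyme M, between 15115 and 22063. The 9 macrophage markers summed to 19754 to 26381 CPM with vehicle and 19176 to 22560 with LDL. Collagen and other stromal markers were also abundant, at 14976 to 18892 CPM with vehicle and 13146 to 14005 with LDL, with Col1a1 between 3754 and 6207 in the 6 libraries. Vav-Cre acts in blood cells and not in stromal cells, and the part of stromal cells in the results was not tested. In bulk RNA, fewer cells of a type and less RNA per cell cannot be told apart.

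The promoters of 6 genes called with LDL are shown because they carry letters by which factors known for their gene groups are usually recognised: the sterol factor in 1 and NF-Y in 2 cholesterol synthesis genes, NF-kB in 2 chemokines and NRF2 in 1 antioxidant gene. Each window lies before the gene's start, from RefSeq with build GRCm38.p6, on the gene's own strand, 5′ to 3′. Capitals mark the match, which may be on either strand. Hmgcs1, the enzyme that feeds the mevalonate pathway, holds the sterol regulatory element TCACNCCAC, and Idi1 and Cyp51, later enzymes of the same pathway, hold CCAAT boxes, the site of NF-Y. Cxcl2 and Cxcl3, chemokines for neutrophils, hold the NF-kB core GGNNTTTCC, and Txnrd1, thioredoxin reductase, holds the antioxidant response element core TGACNNNGC.
Hmgcs1, chr13:119690169-119690267: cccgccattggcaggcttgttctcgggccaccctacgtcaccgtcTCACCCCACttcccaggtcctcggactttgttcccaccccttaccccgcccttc
Idi1, chr13:8885547-8885605: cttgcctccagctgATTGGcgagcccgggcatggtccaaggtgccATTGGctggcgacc
Cyp51, chr5:4104698-4104771: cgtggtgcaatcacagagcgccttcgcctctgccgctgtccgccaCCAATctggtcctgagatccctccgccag
Cxcl2, chr5:90903777-90903875: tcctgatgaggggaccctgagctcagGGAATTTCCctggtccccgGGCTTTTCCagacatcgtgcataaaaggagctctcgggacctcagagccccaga
Cxcl3, chr5:90785984-90786082: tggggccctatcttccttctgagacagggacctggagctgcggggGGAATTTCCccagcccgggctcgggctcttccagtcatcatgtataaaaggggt
Txnrd1, chr10:82859069-82859167: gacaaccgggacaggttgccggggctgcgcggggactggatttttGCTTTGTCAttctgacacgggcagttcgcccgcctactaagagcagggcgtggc

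The matches were read against all tested genes with a promoter in the table, 12329 in number, in the 250 bases before the start on both strands. The NF-kB core was in 5 of 9 CXC chemokine promoters and 6 of 14 promoters of NF-kB subunits and feedback genes, against 6.31% of all. A CCAAT box was in 15 of 16 promoters of cholesterol synthesis genes, 10 of 10 of MHC class II genes and 18 of 21 of mitosis genes, against 39.8% of all. The sterol element was in 1 of 16 cholesterol synthesis promoters, that of Hmgcs1, against 1.29%. It was in 0 of 9 promoters of SREBP control and LDL uptake and 0 of 11 of fatty acid synthesis. An E2F site was in 3 of 23 replication and 0 of 21 mitosis promoters, against 3.74%. The ATF4 site was in 2 of 16 promoters of its list, against 0.6%. A STAT site was in 2 of 16 promoters of the JAK and STAT list and 3 of 19 of type I interferon genes, against 7.23%. The antioxidant core was in 4 of 18 promoters of NRF2 targets, against 13.8%. A match describes the letters in the window and shows no binding.

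Genes of cholesterol synthesis fell together in Jak2VF cells given LDL. Of 21 enzymes tested, 19 were lower and 1 higher, with a median of -1.06, against a median of -0.02 over all genes tested. Idi1, which isomerises the isoprenoid unit, was at 63.5, 67.1 and 67.4 CPM with vehicle and 18.5, 15.8 and 17.9 with LDL, 3.8-fold lower (-1.93 ± 0.087, adjusted p = 2.27e-12). Every LDL library lay far under every vehicle library. Cyp51, the lanosterol demethylase, went from 83.6, 78.1 and 74.3 to 25.2, 25.8 and 24.7 CPM (-1.64 ± 0.081, adjusted p = 1.27e-11). Hmgcs1 went from 95.4, 95.8 and 83.6 to 35.7, 35.4 and 35.6 CPM (-1.36 ± 0.085, adjusted p = 4.5e-10). Neither of these had overlapping groups. Among the other enzymes Fdft1 fell by 1.29, Msmo1 by 1.29, Sqle by 1.25 and Lss by 1.01 on the log2 scale. The member called higher was Ggps1, which makes geranylgeranyl diphosphate for protein prenylation, at 33.6, 36.2 and 34.6 against 45.1, 40.1 and 44.5 CPM (0.31 ± 0.10, adjusted p = 0.0267), and this call was lost in leave-out fits, at an adjusted p of up to 0.114. Hsd17b7 did not pass (-0.42 ± 0.21, adjusted p = 0.171), with overlapping groups.

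The regulators of the sterol response followed the enzymes in part: 4 of the 13 genes of SREBP control and LDL uptake were lower and 1 was higher. Insig1, which holds SREBP in the endoplasmic reticulum and is itself a target of it, was at 63.2, 58.9 and 58.5 CPM with vehicle and 19, 17.9 and 18.2 with LDL (-1.71 ± 0.073, adjusted p = 1.28e-12). Its LDL libraries lay close to each other and well under the vehicle libraries. Stard4, a carrier of cholesterol between membranes, fell by 1.21 and Srebf2, which encodes SREBP2, by 0.77. Mylip, an LXR target that encodes a ubiquitin ligase, was the member that rose, from 36.6, 37.4 and 38.7 to 79.5, 79.9 and 76.8 CPM (1.07 ± 0.078, adjusted p = 3.6e-09). Npc1 and Npc2, which move cholesterol out of lysosomes, did not pass the test, at 0.0094 ± 0.14 and -0.44 ± 0.19 (adjusted p = 0.971 and 0.11).

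The cholesterol exporter Abcg1 (chr17:31057675-31117988, plus strand) rose the most among the LXR targets. It was at 16.8, 15.6 and 17.9 CPM with vehicle and 172, 160 and 163 with LDL, 9.84-fold higher (3.30 ± 0.11, adjusted p = 3.1e-14). The LDL libraries differed among themselves by far less than from the vehicle libraries. Abca1, which loads cholesterol on apolipoprotein A-I, was at 362, 405 and 512 CPM against 968, 729 and 834 (0.98 ± 0.18, adjusted p = 0.000614). Over the list, 5 of 14 genes were higher and 3 lower; the other 3 that rose were Mylip, Arl4c (0.76) and Lpcat3 (0.47). Apoe, the apolipoprotein that macrophages secrete with cholesterol, fell although it is an LXR target: 8215, 6833 and 4924 CPM with vehicle against 2968, 3517 and 2585 with LDL (-1.14 ± 0.23, adjusted p = 0.00112). Its vehicle libraries spread widely, with vehicle 3 the lowest, but no LDL library reached them. With the trends removed the fall in Apoe was 0.81. Pltp and Smpdl3a were called lower as well, at -0.51 and -0.38, but each call was lost in leave-out fits, at an adjusted p of up to 0.112 and 0.13. Without LDL 1, LDL 3, vehicle 1 or vehicle 2, Apoe was the 1 member still called lower.

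Among the scavenger receptors, 3 of 13 rose and 2 fell. Cd36, which binds oxidised LDL, went from 135, 164 and 151 to 440, 393 and 421 CPM (1.48 ± 0.10, adjusted p = 6.97e-10). Msr1, the class A receptor, went from 164, 170 and 164 to 385, 354 and 364 CPM (1.15 ± 0.12, adjusted p = 5.25e-07). These receptors are known to take up modified LDL without feedback from sterols. Mrc1, the mannose receptor, fell from 434, 551 and 648 to 301, 263 and 299 CPM (-0.92 ± 0.19, adjusted p = 0.00129). The lipid droplet list had 3 of 15 genes higher and 2 lower. Its rises were Hilpda, an inhibitor of droplet lipolysis (43.9, 40.7 and 29.9 against 127, 143 and 113 CPM, 1.74 ± 0.18), the droplet coat gene Plin2 (868, 740 and 603 against 1303, 1527 and 1257 CPM, 0.89 ± 0.12) and Angptl4, an inhibitor of lipoprotein lipase (169, 128 and 106 against 209, 277 and 215 CPM, 0.80 ± 0.20, adjusted p = 0.00666). Of 14 genes of fatty acid synthesis 6 were lower and 1 higher. The lower ones included the desaturases Fads1 (-0.66 ± 0.065) and Fads2 (-0.82 ± 0.14) and the acyl-CoA synthetase Acsl3 (-0.63 ± 0.095). Without LDL 3 these 3 were the members called lower. The member called higher, the malic enzyme gene Me1 (0.26 ± 0.085, adjusted p = 0.0366), lost its call whichever of the 6 libraries was left out and with the trends removed. The 2 droplet genes called lower were lost without LDL 1, LDL 3, vehicle 1 or vehicle 2. The count of scavenger receptors lower was 1 without LDL 1, LDL 3 or vehicle 2 and 4 without LDL 2.

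**Figure D2:**
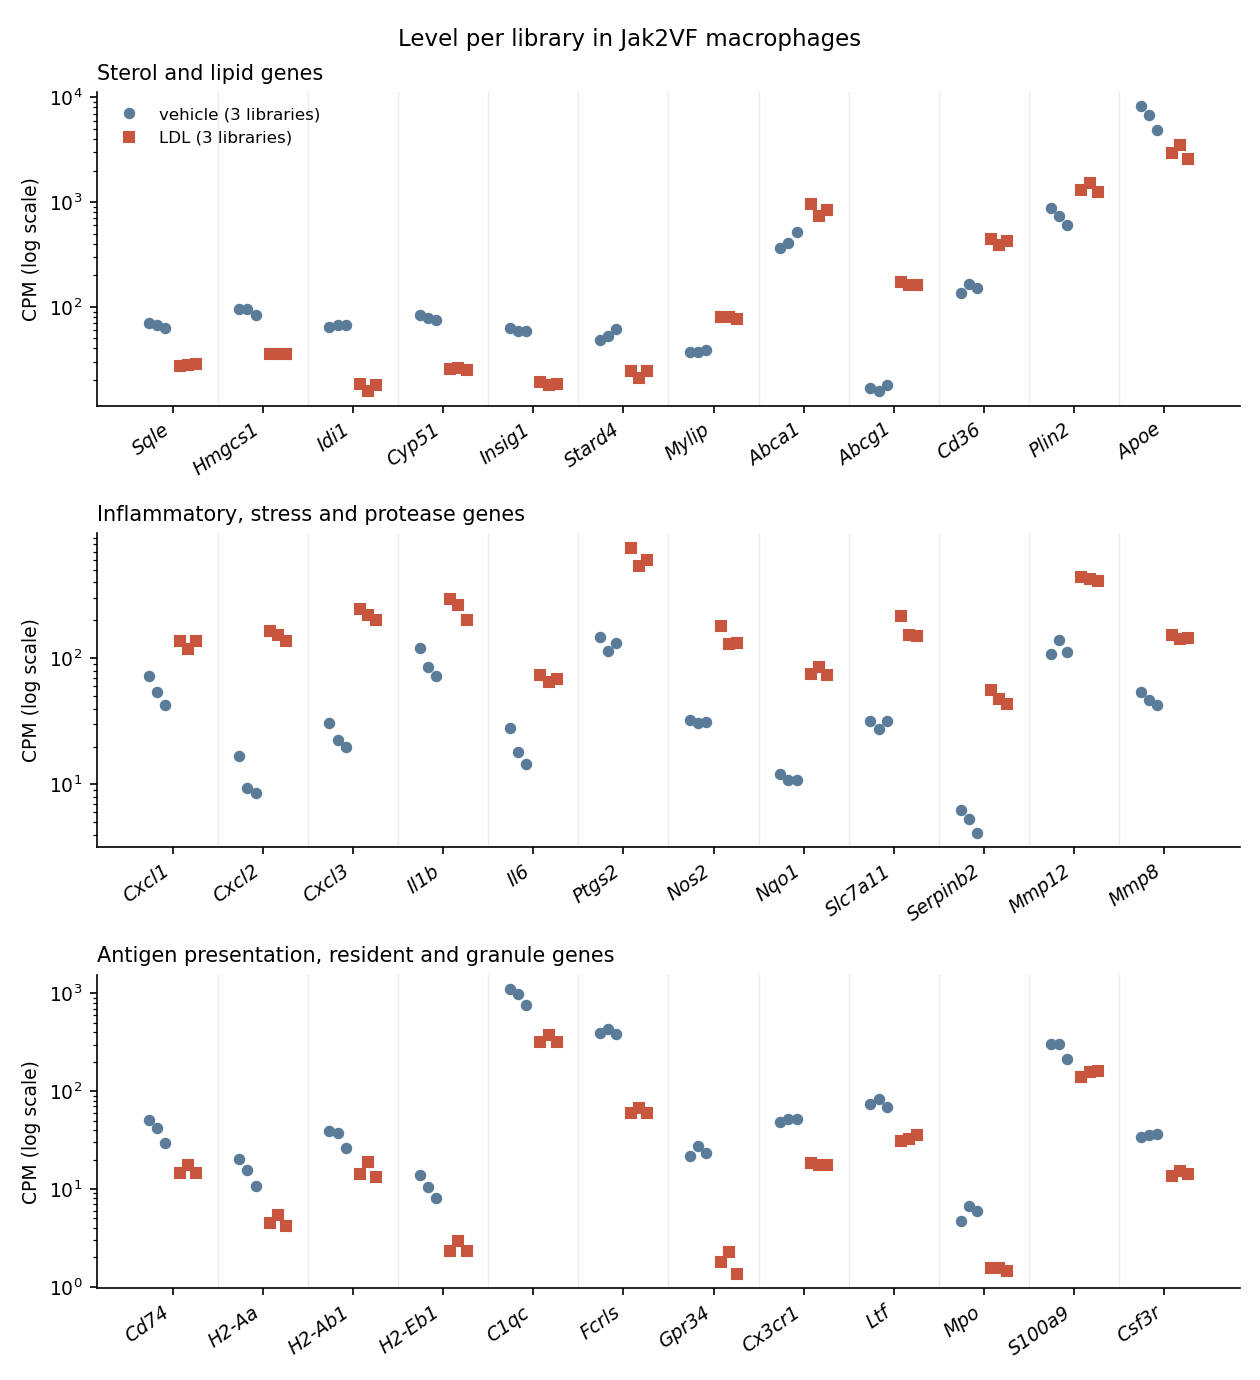
CPM (log axis) of 36 genes in each of the 6 Jak2VF libraries, vehicle as circles and LDL as squares, in 3 panels: sterol and lipid genes, inflammatory, stress and protease genes, and antigen presentation, resident macrophage and granule genes. Sterol synthesis genes are lower in all 3 LDL libraries, Abcg1, Cxcl2 and Nqo1 are higher in all 3, and H2-Eb1 lies between 2.31 and 2.95 CPM with LDL against 8.04 to 13.8 with vehicle.

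NRF2 targets rose: 14 of 21 were higher and 0 lower, with a median of 0.42. Nqo1, a quinone reductase, was at 12, 10.8 and 10.9 CPM with vehicle and 75.4, 85.3 and 73.2 with LDL (2.79 ± 0.12, adjusted p = 1.28e-12). Slc7a11, the cystine transporter, was at 31.9, 27.5 and 31.6 against 216, 152 and 150 CPM (2.51 ± 0.20, adjusted p = 1.43e-08). Srxn1 (1.22 ± 0.10), which repairs peroxiredoxins, Txnrd1 (0.97 ± 0.084) and both subunits of the glutathione-making enzyme, Gclc (0.96 ± 0.13) and Gclm (0.79 ± 0.091), rose too. Hmox1, haem oxygenase, was at 443, 456 and 416 against 675, 750 and 605 CPM (0.63 ± 0.13, adjusted p = 0.0015). The ferritin genes did not pass: Fth1 lay between 2351 and 4609 CPM with vehicle and between 2939 and 4070 with LDL (-0.0012 ± 0.28, adjusted p = 0.998), and Ftl1 differed by -0.01 ± 0.23 (adjusted p = 0.981). Ftl1 was called higher, at 0.31, once the trends were removed. Endoplasmic reticulum chaperones had 5 of 13 genes higher and 0 lower, led by Hspa5 (0.51 ± 0.071) and Hyou1 (0.76 ± 0.11), while the ATF4 list had 1 of 17 higher and 4 lower. The chaperone count was 3 without LDL 1, LDL 2 or vehicle 1 and 10 with the trends removed, and the ATF4 count lower was 1 without vehicle 1, 2 without LDL 3 and 7 without vehicle 3. Of 24 hypoxia and glycolysis genes 7 were higher and 1 lower, with Vegfa, the endothelial growth factor, at 191, 217 and 247 against 382, 344 and 360 CPM (0.73 ± 0.10, adjusted p = 1.93e-05). The hypoxia count lower was 0 without LDL 1, LDL 3 or vehicle 2 and 2 without LDL 2.

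Chemokines that draw neutrophils were among the largest rises. Cxcl2 went from 16.8, 9.45 and 8.52 to 166, 153 and 137 CPM, 13.1-fold higher (3.71 ± 0.24, adjusted p = 5.58e-10). Cxcl3 went from 30.9, 22.6 and 19.9 to 246, 219 and 203 CPM (3.18 ± 0.19, adjusted p = 2.89e-10). In both, vehicle 1 was the highest vehicle library and still under every LDL library. Cxcl1 was at 73.1, 53.9 and 42.6 against 136, 118 and 136 CPM (1.20 ± 0.16, adjusted p = 2.01e-05), and Cxcl5 and Ppbp, which act on the same receptor, rose by 0.79 and 1.79. In all, 6 of 11 CXC chemokines were higher and 2 lower; Cxcl12, the ligand of CXCR4, was one of those lower (-0.86 ± 0.18, adjusted p = 0.00161), and it is also a stromal marker. Of 10 CC chemokines 3 were higher and 0 lower, with Ccl9 at 785, 656 and 552 against 1440, 1626 and 1363 CPM (1.15 ± 0.13, adjusted p = 1.32e-06). The call of Ccl2 (0.55 ± 0.14, adjusted p = 0.00853) was lost without vehicle 2, at an adjusted p of 0.0519, which left 1 CC chemokine called higher. The CC count lower was 1 without vehicle 3 and 2 with the 6 Jak2VF libraries alone. Without LDL 1, LDL 3, vehicle 1 or vehicle 2, Cxcl12 was the 1 CXC chemokine called lower.

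Cytokines rose in 7 of 14 cases and fell in 2. Il6 was at 27.9, 18.1 and 14.5 CPM with vehicle and 74.4, 64.5 and 69.2 with LDL (1.78 ± 0.19, adjusted p = 6.52e-07). Il1b was at 120, 85.7 and 71.8 against 294, 266 and 201 CPM (1.46 ± 0.28, adjusted p = 0.000931). Tnf was at 6.64, 4.28 and 4.94 against 11.5, 13.5 and 11.2 CPM (1.19 ± 0.18, adjusted p = 6.66e-05). None of these had overlapping groups. Lif rose by 1.39, Il1a by 2.35 and Csf3, the granulocyte growth factor, by 1.95, and both Il1a and Csf3 were under 1 CPM in every vehicle library. Il1rn, the antagonist of the interleukin 1 receptor, fell from 99.3, 102 and 102 to 75.8, 78.8 and 83.2 CPM (-0.35 ± 0.087, adjusted p = 0.00663). Of 17 NF-kB subunits and feedback genes 8 were higher and 0 lower. The rises were in feedback genes such as Nfkbiz (1.16 ± 0.074), Tnfaip3 (0.93 ± 0.12), Tnip3 (0.84 ± 0.092) and Nfkbia (0.59 ± 0.10), while the subunits Nfkb1 (0.17 ± 0.091, adjusted p = 0.204) and Rela (-0.032 ± 0.12, adjusted p = 0.867) did not pass. Inflammasome components had 3 of 9 genes higher, 1 of them without LDL 1, and 1 lower, a count of 2 without vehicle 1.

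Enzymes that make nitric oxide, polyamines and prostaglandins rose in 8 of 13 cases and fell in 1. Nos2, the inducible nitric oxide synthase, was at 32.4, 30.8 and 31.4 CPM with vehicle and 180, 131 and 133 with LDL (2.23 ± 0.17, adjusted p = 6.17e-09). Arg1, the arginase that competes with it for arginine, was at 592, 522 and 388 against 1690, 1703 and 1458 CPM (1.69 ± 0.20, adjusted p = 2.51e-06). Nos2 is usually listed with classical and Arg1 with alternative activation, and both rose in the same libraries. Of 10 alternative activation genes tested 3 were higher and 4 lower, with a median of -0.37. In the fits that left out 1 library, 2 or 3 were higher and 3 or 4 lower. Ptgs2, the inducible cyclooxygenase, was at 148, 115 and 133 against 754, 540 and 605 CPM (2.26 ± 0.18, adjusted p = 1.34e-08). Hpgd, which breaks prostaglandins down, was the 1 of the 13 enzymes that fell, from 11.7, 14.2 and 13 to 5.22, 5.33 and 4.89 CPM (-1.33 ± 0.10, adjusted p = 4.12e-09).

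Genes of matrix and clot breakdown rose as well. Mmp8 (chr9:7558456-7568485, plus strand), a collagenase known from neutrophils, was at 54.5, 47.1 and 42.7 CPM with vehicle and 152, 143 and 145 with LDL (1.61 ± 0.12, adjusted p = 6.44e-09). Mmp12, the macrophage elastase, was at 109, 141 and 113 against 442, 429 and 409 CPM (1.82 ± 0.13, adjusted p = 2.2e-09), and Mmp3 was at 188, 181 and 157 against 437, 479 and 419 CPM (1.34 ± 0.17, adjusted p = 5.82e-06). Of 14 metalloproteinases and inhibitors 8 were higher and 2 lower, and the inhibitor Timp2 was among those lower (-0.48 ± 0.074, adjusted p = 8.72e-05). The other one lower, Mmp14, lost its call without LDL 1, LDL 3 or vehicle 1, and the count higher was 6 or 7 in the fits that left out 1 library. The plasminogen and coagulation list had 9 of 14 genes higher and 1 lower, with a median of 0.70. Serpinb2, an inhibitor of plasminogen activators, was at 6.25, 5.3 and 4.15 CPM against 55.8, 47.6 and 43.2 (3.22 ± 0.17, adjusted p = 3.91e-11). The receptor Plaur (0.77 ± 0.13), the activator Plat (0.77 ± 0.10) and tissue factor, F3 (0.63 ± 0.089), rose beside it. The member that fell was F13a1, factor XIII, at 638, 732 and 751 against 462, 410 and 439 CPM (-0.69 ± 0.11, adjusted p = 7.72e-05), a gene also used as a monocyte marker.

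**Figure D3:**
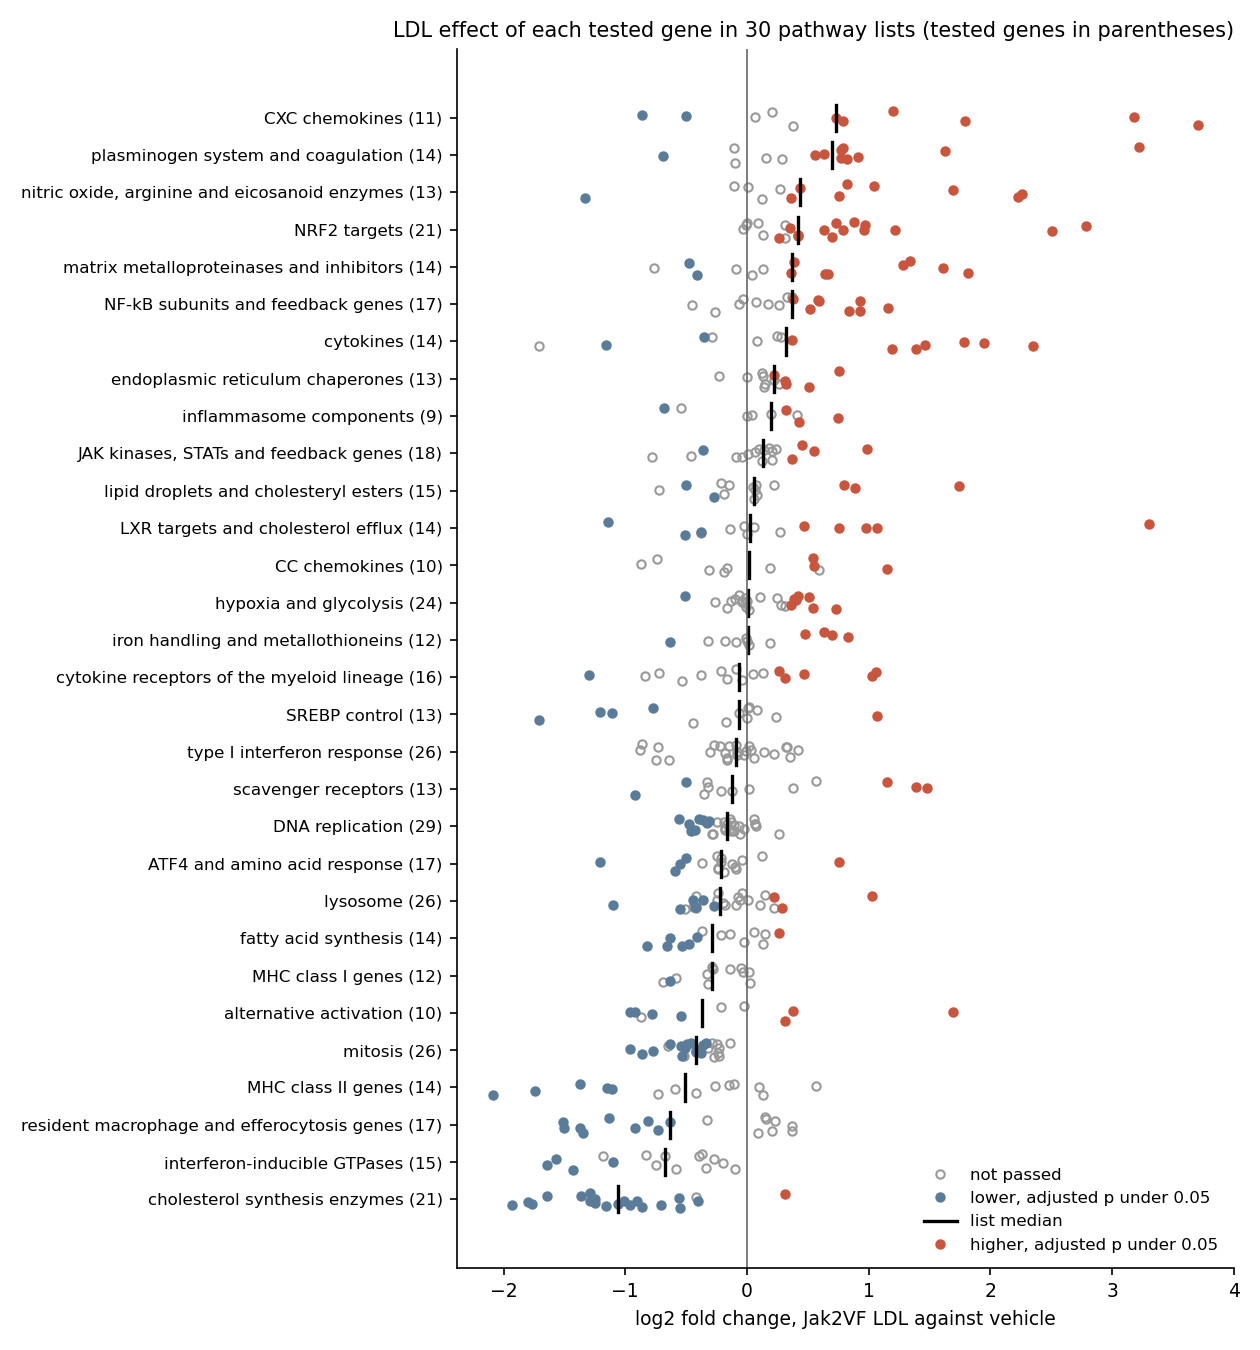
Log2 LDL effect in Jak2VF cells (x axis) of every tested gene in 30 pathway lists (rows), filled where called and open where not, with a black bar at the list's median. The median is -1.06 for cholesterol synthesis, 0.70 for the plasminogen list and 0.42 for the NRF2 targets.

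Of 18 JAK kinases, STATs and feedback genes 4 were higher and 1 lower. The member lower, Jak3 (-0.36 ± 0.11, adjusted p = 0.0264), did not pass with the trends removed (adjusted p = 0.117) and lost its call without LDL 1, LDL 2, LDL 3 or vehicle 3. Pim1, a kinase induced by STAT5, rose from 46.5, 42.4 and 38.5 to 88.3, 83.5 and 82.1 CPM (0.99 ± 0.091, adjusted p = 8.86e-08), and the feedback inhibitor Socs3 from 87.3, 78.5 and 73.2 to 112, 130 and 108 CPM (0.55 ± 0.10, adjusted p = 0.000458). The same genes rose in WT cells with LDL, by 0.99 and 0.72. Receptor genes rose in 5 of 16 cases and fell in 1; the count lower was 2 without LDL 2 and 3 without vehicle 3, with the 6 Jak2VF libraries alone or with DESeq2. Csf2rb, the common chain of the GM-CSF receptor through which JAK2 signals, went from 206, 188 and 191 to 420, 408 and 390 CPM (1.06 ± 0.078, adjusted p = 4.52e-09); reads from Csf2rb and its near-identical neighbour Csf2rb2 may be split between them. Csf3r, the G-CSF receptor, fell from 33.9, 35.7 and 36.4 to 13.5, 15.2 and 14.4 CPM (-1.30 ± 0.11, adjusted p = 1.47e-08). Of 26 type I interferon response genes 0 were called by edgeR, against 1 by DESeq2 and 1 at an unadjusted p under 0.05 in edgeR, both lower. Without vehicle 3, and with the 6 Jak2VF libraries alone, edgeR called 1 lower.

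MHC class II genes fell in Jak2VF cells. H2-Eb1 (chr17:34305867-34316674, plus strand), the beta chain of the I-E molecule, was at 13.8, 10.4 and 8.04 CPM with vehicle and 2.32, 2.95 and 2.31 with LDL, 4.25-fold lower (-2.09 ± 0.25, adjusted p = 4.35e-06). H2-Aa was at 20.5, 15.8 and 10.8 against 4.48, 5.4 and 4.23 CPM (-1.74 ± 0.27, adjusted p = 7.7e-05). Cd74, the invariant chain that guards the class II groove, was at 50.4, 41.7 and 29.4 against 14.7, 17.8 and 14.6 CPM (-1.37 ± 0.31, adjusted p = 0.00326), and H2-Ab1 was at 39.3, 37.3 and 26.4 against 14.3, 18.8 and 13.2 CPM (-1.15 ± 0.23, adjusted p = 0.00124). Vehicle 1 was the highest and vehicle 3 the lowest of the vehicle libraries in all 4 genes, and the groups did not overlap. With H2-Ob, 5 of 14 class II genes were lower and 0 higher, and the peptide loaders H2-DMa (-0.42 ± 0.21, adjusted p = 0.16) and H2-DMb1 (-0.26 ± 0.15, adjusted p = 0.225) did not pass. Interferon-inducible GTPases were lower in 4 of 15 cases, 7 with the trends removed, and class I genes in 1 of 12. The class I count was 2 with the trends removed or without LDL 2, 3 without vehicle 3, with the 6 Jak2VF libraries alone or with DESeq2, and 0 without LDL 3. The B cell markers, whose cells carry class II, summed to 62.3 to 78.3 CPM with vehicle and 43.1 to 49.4 with LDL, with 6 of 8 lower. The dendritic cell markers summed to 74.2 to 81.2 and 60.3 to 65.8 CPM, with 2 of 9 lower, a count of 0 without LDL 1, LDL 3 or vehicle 1. Of the 11 dendritic cell markers, 7 were under 1 CPM in all 6 libraries: Flt3, Xcr1, Clec9a, Cd209a, Ccr7, Siglech and Batf3. The part of B cells and dendritic cells in the class II result was not tested.

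Genes of resident macrophages and of the uptake of dead cells were lower in 9 of 17 cases and higher in 0 in the uncorrected edgeR fit. With the trends removed 10 were lower and 2 higher, and 1 was higher with DESeq2 or without vehicle 3. Gpr34 and Fcrls are not members of this list and were named for the size of their fall. Gpr34, a lysophospholipid receptor, went from 21.9, 27.8 and 23.1 to 1.8, 2.29 and 1.35 CPM, 13.3-fold lower (-3.73 ± 0.21, adjusted p = 1.47e-10). Fcrls went from 395, 429 and 380 to 59.6, 67.8 and 59.2 CPM (-2.69 ± 0.10, adjusted p = 1.2e-13). The complement gene C1qc went from 1107, 984 and 764 to 318, 372 and 322 CPM (-1.50 ± 0.21, adjusted p = 3.27e-05), with C1qa and C1qb lower by 1.13 and 1.37. Cx3cr1, the fractalkine receptor, went from 48.2, 51.8 and 52.5 to 18.3, 17.4 and 17.8 CPM (-1.51 ± 0.086, adjusted p = 1.19e-10). Gas6 (-1.35 ± 0.11), a bridge to dying cells, its receptor Mertk (-0.63 ± 0.14) and the lipid sensor Trem2 (-0.73 ± 0.18) fell too, whereas the related receptor Axl did not pass (0.16 ± 0.086, adjusted p = 0.199). General macrophage markers did not move in 1 direction: Cd14 rose (1.18 ± 0.15), Itgam rose (0.53 ± 0.087), Adgre1, which encodes F4/80, fell (-0.56 ± 0.066) and Csf1r did not pass (-0.086 ± 0.07, adjusted p = 0.402).

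Neutrophil granule genes were lower with LDL. Of 7 primary granule genes 5 fell, among them Mpo, myeloperoxidase, at 4.7, 6.67 and 5.97 against 1.56, 1.56 and 1.46 CPM (-1.92 ± 0.21, adjusted p = 8.43e-07). Of 16 secondary granule and S100 genes 10 fell and 2 rose. Ltf, lactoferrin, was at 74.6, 83 and 69.3 against 30.9, 32.5 and 35.5 CPM (-1.20 ± 0.12, adjusted p = 4.03e-07), and S100a9 at 307, 303 and 214 against 139, 158 and 159 CPM (-0.86 ± 0.18, adjusted p = 0.00167). The 2 that rose were Mmp8 and Mmp9, and Mmp9 (0.39 ± 0.13, adjusted p = 0.0454) lost its call whichever of the 6 libraries was left out, at an adjusted p of up to 0.169. The primary granule markers summed to 17.9 to 21.8 CPM with vehicle and 7.32 to 8.35 with LDL. Megakaryocyte markers summed to 581 to 965 and 1000 to 1202 CPM, but 5 of the 10 were lower and 1 higher, with a median of -0.74. The sum was mostly Pf4 (488 to 846 and 807 to 995 CPM), which did not pass (0.38 ± 0.19, adjusted p = 0.175), and the member higher was Ppbp. T and NK cell markers summed to 53.8 to 60.3 and 76.4 to 85 CPM, with Cd3e, Cd3d, Cd3g, Cd8a and Gzma under 1 CPM in all 6 libraries. Of the 11, Il7r was higher (0.99 ± 0.12, adjusted p = 2.43e-06) and Cd4 lower (-2.04 ± 0.092, adjusted p = 2.27e-12), and the median was -0.73. The count lower was 2 without LDL 2 and 3 without vehicle 3. The part of these cells in the results was not tested.

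**Figure D4:**
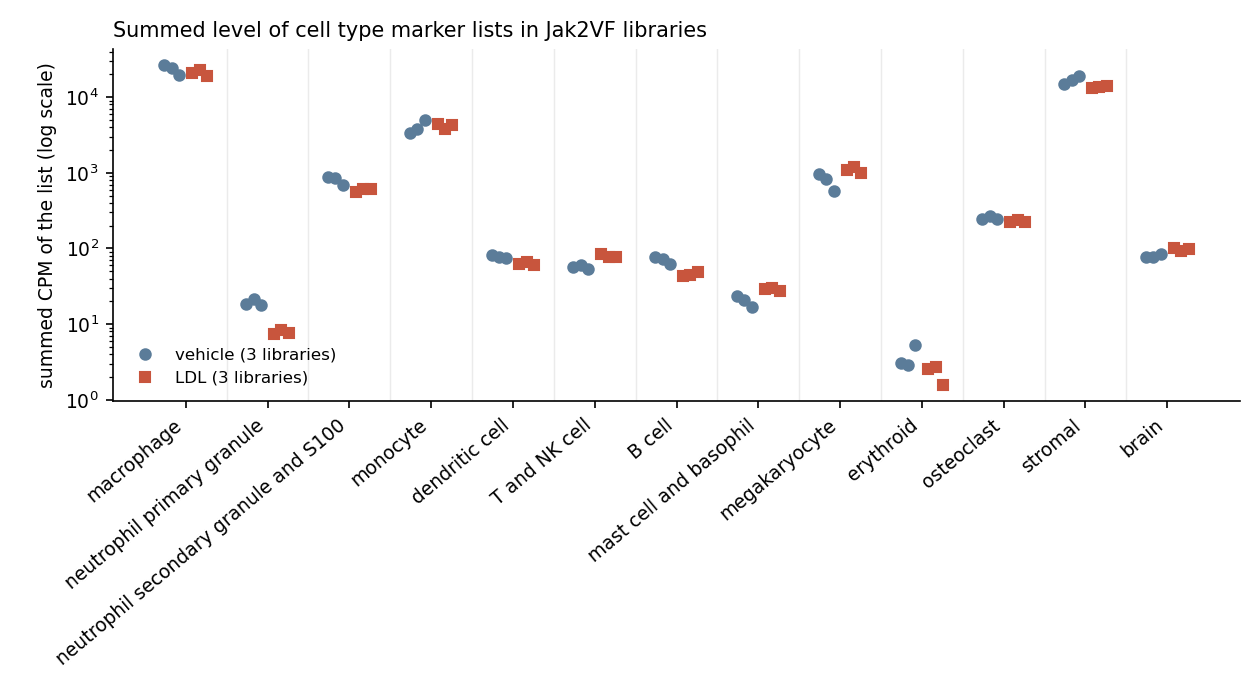
Summed CPM (log axis) of the markers of 13 cell types in each Jak2VF library, vehicle and LDL. Macrophage markers lie between 19176 and 26381 CPM in all 6 libraries, stromal markers between 13146 and 18892, and the primary granule markers between 17.9 and 21.8 with vehicle and between 7.32 and 8.35 with LDL.

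Genes of cell division were lower with LDL. Of 26 mitosis genes 15 were lower and 0 higher, and of 29 DNA replication genes 8 were lower and 0 higher. Ccnb2, a mitotic cyclin, was at 53.9, 53.9 and 48.7 against 24.2, 27.9 and 28.2 CPM (-0.96 ± 0.13, adjusted p = 1.45e-05), and Kif23, a kinesin of cell separation, at 42.4, 45.4 and 49.5 against 31, 30.5 and 32.8 CPM (-0.54 ± 0.10, adjusted p = 0.000596). Nusap1, a spindle gene, was at 44.4, 54.4 and 50.8 against 33, 32.6 and 39.5 CPM (-0.51 ± 0.10, adjusted p = 0.00157). Top2a did not pass, at 210, 244 and 310 against 219, 190 and 241 CPM (-0.23 ± 0.16, adjusted p = 0.304); its groups overlapped, and it was called lower with the trends removed (-0.42). The count of mitosis genes lower ranged from 11 to 15 over the fits that left out 1 library, and that of replication genes from 1 without LDL 1 and 3 without vehicle 1 to 8.

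The same treatment in the other genotypes shows how much of this response was shared. Of the 1642 genes higher in Jak2VF cells, 1288 had the same sign in WT cells, 1600 in Dnmt3aKO cells and 1498 in Tet2KO cells, and 656, 880 and 806 of them were also called there, where 6.67%, 6.41% and 8.59% of all genes were called higher. Of the 1890 lower, 1427, 1814 and 1615 had the same sign and 677, 1083 and 842 were called, where 7.58%, 8.96% and 8.21% of all genes were called lower. Genes called in both with opposite signs numbered 19, 2 and 4. One of the 19 was Ly6c2, a marker of inflammatory monocytes, at -0.99 in Jak2VF and 0.61 in WT cells (adjusted p = 0.0367 in WT). In WT cells Insig1 fell by 1.75 and Abcg1 and Nqo1 rose by 2.88 and 2.74, and their differences from the Jak2VF effects did not pass the test, at 0.042 (adjusted p = 0.808), 0.42 (adjusted p = 0.0952) and 0.051 (adjusted p = 0.858). Idi1 fell by 2.40 in WT cells, and the effect in Jak2VF cells was higher by 0.48 (adjusted p = 0.0396), a call lost with the trends removed. Over 11249 genes with a mean of 5 CPM or more, Jak2VF LDL effects had Pearson correlations of 0.39, 0.83 and 0.51 with those of WT, Dnmt3aKO and Tet2KO cells. With the trends removed these were 0.62, 0.86 and 0.71. In that fit 1997 of the 2361 genes higher and 1776 of the 2168 lower had the same sign in WT cells.

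Whether the Jak2VF response differed from the WT response was tested as the LDL effect in Jak2VF cells minus that in WT cells. This called 480 genes (2.47%), 293 with a higher effect in Jak2VF cells (1.51%) and 187 with a lower one (0.962%). With the trends removed it called 441 higher (2.27%) and 281 lower (1.45%), and 340 genes were called in both fits. The count moved strongly with single libraries: it was 3628 without WT LDL 2, 3021 without Jak2VF vehicle 3 and 1568 without WT vehicle 1, and lay between 96 and 891 in the other 9 leave-out fits. It was 22 when only the 12 WT and Jak2VF libraries were fitted, and 1807 with DESeq2. Of the 58 genes examined one by one for this difference, 18 were called whichever of the 12 libraries was left out. In the fit of the 12 libraries alone, 6 of the 58 were called (H2-Eb1, Nusap1, Ndc80, Col8a2, Plbd1 and Tal2) and 52 were not, among them every other gene with a difference between these genotypes described in the next 3 paragraphs.

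Class II genes differed in their LDL effect between Jak2VF and WT cells. In WT cells H2-Eb1 was at 6.69, 4.67 and 4.54 CPM with vehicle and 8.83, 4.52 and 6.07 with LDL, a difference of 0.29 that did not pass (adjusted p = 0.483). The effect in Jak2VF cells was lower by 2.38 ± 0.35 (adjusted p = 0.00293), a call kept without any 1 of the 12 libraries. H2-Aa (-2.05 ± 0.37, adjusted p = 0.00797) also kept its call in all 12 leave-out fits. Of the 14 class II genes 4 had a lower effect and 0 a higher one, a count of 2 without Jak2VF LDL 1, LDL 3, vehicle 1 or vehicle 2, and the others, Cd74 (-1.92 ± 0.43, adjusted p = 0.0242) and H2-Ab1 (-1.37 ± 0.32, adjusted p = 0.0314), each kept the call in 5 of the 12 leave-out fits. With the trends removed Cd74 and H2-Ab1 were called at -1.42 and -0.87. The Jak2VF vehicle libraries that enter this difference also started from a higher level of H2-Eb1 (1.02, adjusted p = 0.0087), and with LDL the Jak2VF cells were lower than the WT cells by 1.35 (adjusted p = 0.00223).

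Cell division genes went the other way. Of 26 mitosis genes tested 25 were lower in WT cells with LDL, where 7.58% of all genes were lower, and 14 of the 26 had a higher, that is less negative, effect in Jak2VF cells, 7 of them whichever library was left out. The count was 7 without Jak2VF vehicle 1 and 8 without LDL 1, LDL 3 or vehicle 2. Nusap1 went from 64.4, 74.6 and 74.8 to 22.3, 27.3 and 23.2 CPM in WT cells, and the effect in Jak2VF cells was higher by 1.05 ± 0.15 (adjusted p = 0.00293). Kif23 differed by 0.87 (adjusted p = 0.00546), Top2a by 1.21 (adjusted p = 0.00797) and Ccna2, cyclin A, by 0.87 (adjusted p = 0.00797). In Jak2VF cells the fall of Ccna2 itself (-0.41 ± 0.11, adjusted p = 0.0145) was lost without LDL 1 or without vehicle 3, at an adjusted p of up to 0.0687. The replication list had 6 of 29 genes with a higher effect, a count of 0 without Jak2VF LDL 1, LDL 3, vehicle 1 or vehicle 2 and 12 without vehicle 3. In the vehicle libraries, 7 mitosis genes were already lower in Jak2VF than in WT cells, Nusap1 by 0.52 (adjusted p = 0.00273). Over protein-coding genes, the median difference between the genotypes rose with length from -0.40 in the shortest class to 0.41 in the longest. It was 0.04 in the middle class, which holds the median lengths of the mitosis list (3586 bases) and the replication list (3205 bases). With the trends removed the shortest and longest classes were at -0.08 and 0.05, and 15 mitosis and 12 replication genes had a higher effect. The median difference of the mitosis list was then 0.66, against 0.80 without correction. The part of length in these counts was not tested.

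Several lipid and uptake genes differed as well. Angptl4 rose in WT cells from 77.3, 50.1 and 47.3 to 352, 236 and 285 CPM, and its effect in Jak2VF cells was lower by 1.52 ± 0.28 (adjusted p = 0.00797). Ppbp rose in WT cells from 31.5, 27.9 and 23.5 to 205, 203 and 223 CPM, and its effect was lower by 1.14 ± 0.19 (adjusted p = 0.00546). In both genes the Jak2VF cells began higher with vehicle, by 1.21 and 0.81, and with LDL the genotypes differed by -0.32 and -0.33, neither of which passed (adjusted p = 0.278 and 0.102). The effect in Jak2VF cells was lower for Apoe by 1.32 (adjusted p = 0.0357) and C1qc by 1.28 (adjusted p = 0.0289). Apoe and C1qc were called in 4 and 5 of the 12 leave-out fits. Cd36 and Msr1, with effects higher by 0.69 (adjusted p = 0.011) and 0.67 (adjusted p = 0.0396), lost their calls with the trends removed; Cd36 was then at 0.43 (adjusted p = 0.0633). Tfrc, the transferrin receptor, had an effect higher by 1.13 that kept its call in all 12 leave-out fits without correction. With the trends also removed, Tfrc did not keep its call in every leave-out fit.

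**Figure D5:**
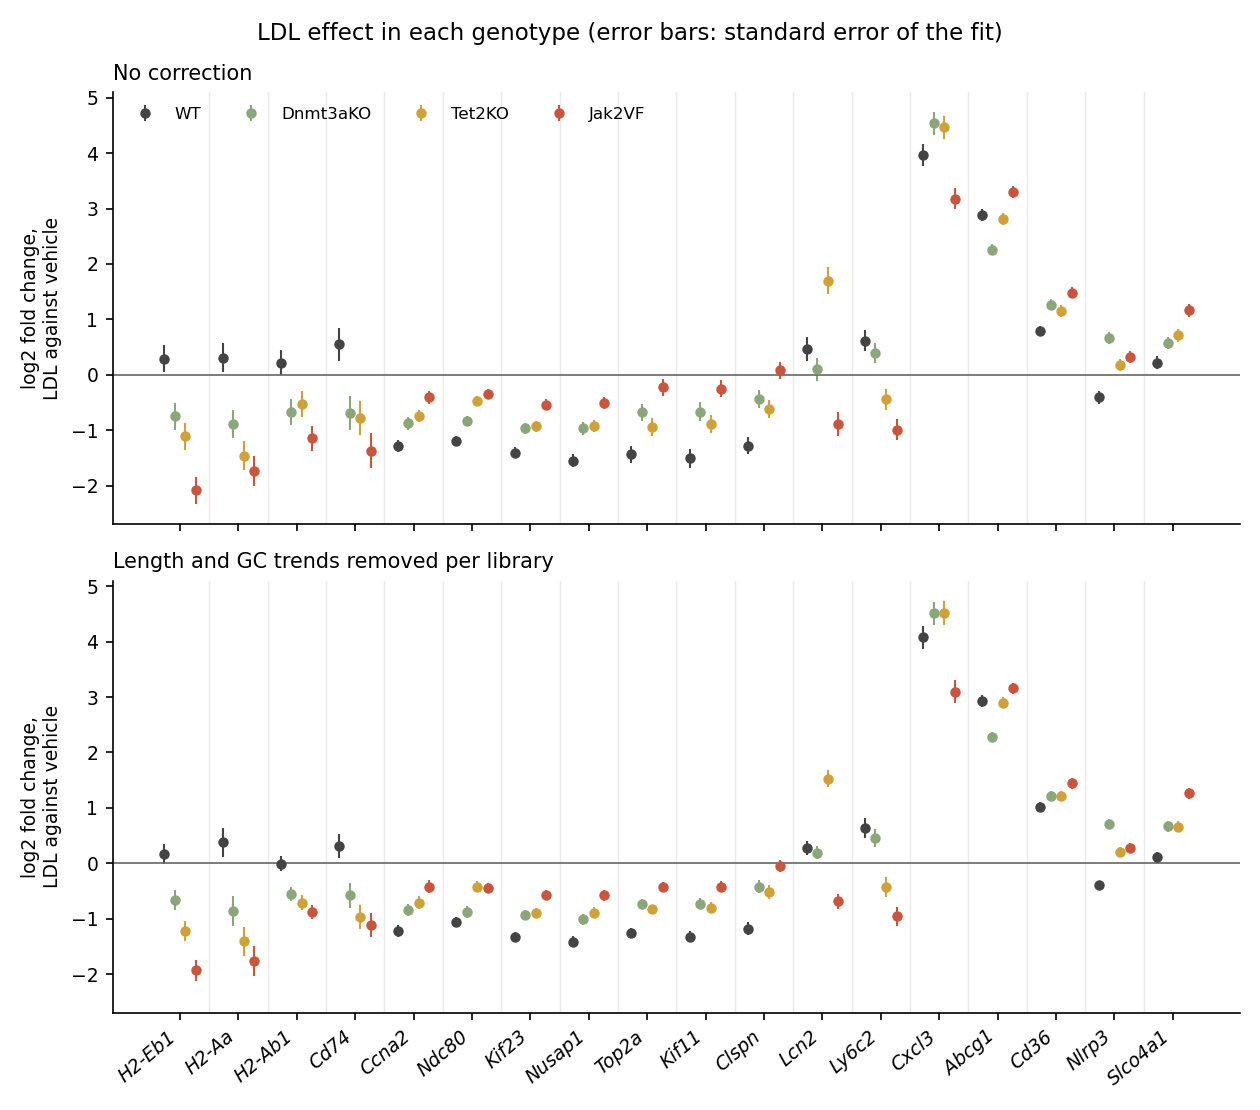
Log2 LDL effect ± SE (y axis) of 18 genes (x axis) in the 4 genotypes, without correction in the top panel and with the length and GC trends removed in the bottom panel. Abcg1 and Cxcl3 lie above 0 and Nusap1 below 0 in all 4 genotypes, and H2-Eb1 is at -2.09 in Jak2VF and 0.29 in WT cells in the top panel.

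Against the mean LDL effect of the other 3 genotypes, 21 genes differed (0.108%), 11 higher (0.0566%) and 10 lower (0.0514%); with the trends removed the count was 78, and 19 genes were called in both. Lower effects were found for Lcn2 (-1.65 ± 0.25, adjusted p = 0.0247), lipocalin 2, and for the chemokines Cxcl1 (-1.15 ± 0.19, adjusted p = 0.0247) and Cxcl3 (-1.14 ± 0.21, adjusted p = 0.0373). Cxcl1 rose by 2.01, 2.48 and 2.57 in WT, Dnmt3aKO and Tet2KO cells against 1.20 in Jak2VF cells. H2-Eb1 was again lower, by 1.56 ± 0.29 (adjusted p = 0.0373), and was the 1 of 14 class II genes called lower in this contrast. Against WT cells alone it was lower by 2.38, so the mean effect of the other 3 genotypes lay below the WT effect. Higher effects included Ptpn22, a phosphatase of immune cells (0.67 ± 0.11, adjusted p = 0.0247), and Abcg1 (0.65 ± 0.12, adjusted p = 0.0373), which did not pass with the trends removed (0.46, adjusted p = 0.0553). Of the 26 mitosis genes, 1 had a higher effect in this contrast, Nusap1, and 4 did with the trends removed. Of the 29 replication genes, 0 had a higher effect in either fit. None of the 17 genes of this contrast that were examined kept its call in all 24 leave-out fits: Lcn2 did in 19 and Cxcl1 in 18. Without Jak2VF vehicle 3 the count of all genes was 1552, and without any 1 of the other 5 Jak2VF libraries it was 5 or less.

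The starting levels bear on these differences because the Jak2VF and WT vehicle libraries enter both. With vehicle, 1857 genes differed between Jak2VF and WT cells (9.55%), 835 higher in Jak2VF cells (4.29%) and 1022 lower (5.26%). Granule genes began higher: 5 of 7 primary granule genes and 11 of 16 secondary granule and S100 genes, with Ltf higher by 1.42 (adjusted p = 3.15e-07), S100a9 by 1.65 (adjusted p = 5.62e-06) and Lcn2 by 1.81 (adjusted p = 1.65e-05). Cxcl1 (1.18), Cxcl3 (0.72), Il6 (1.32) and Il1b (1.23) also began higher, and Cd36 (-0.93), Msr1 (-0.62), Mrc1 (-0.94), Abcg1 (-0.53) and Tnf (-0.77) began lower. Of the 26 type I interferon genes, 14 were lower with vehicle in Jak2VF cells, and 0 were called by edgeR for the effect of LDL in those cells. With LDL, Cxcl1, Cxcl3 and Il1b differed between the genotypes by 0.38, -0.055 and -0.16, and none of these passed the test (adjusted p = 0.132, 0.853 and 0.711).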

How the data were processed

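Counts of reads per gene for all libraries of the main set were deposited by the authors as 1 table of whole numbers; the table's own name calls it normalised, but it holds only whole numbers and its library totals range from 24105237 to 43904761, so it was treated as raw counts. Whether a scaling had been applied and rounded was not tested. The submitters' processing notes name mm10; for the aligner and the counter, the sources used here give no name. The labels' protocols name RNA extraction with Trizol and RNeasy columns, DNase, a Ribo-Zero step and poly-A selection. Libraries were tied to groups by their labels, and 0 columns of values were left unmatched.

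Of 52550 genes, 19444 were tested, namely those reaching 10 counts in 3 or more libraries. They held 99.93% of the counts. In R 4.3.3, edgeR 4.0.16 (TMM, quasi-likelihood test) was fitted to the 24 libraries as 8 group means, with 16 residual degrees of freedom, with Benjamini-Hochberg adjustment over all genes tested. The common biological coefficient of variation was 0.137. A second fit added offsets from a spline on transcript length and GC content. The spline was fitted to each library's natural log levels, taken relative to each gene's mean over the 24 libraries. Length and GC content came from the longest GENCODE M21 transcript of each gene. limma 3.58.1 (voom), DESeq2 1.42.0, other filters, leave-out fits and replicate blocks were the alternatives.

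Genes were named by rule: Jak2 and 3 markers, the 12 largest rises and falls, up to 5 members of each list with the smallest adjusted p, members called the other way, 2 abundant members not called, the 8 largest differences in each direction for each contrast of LDL effects, and cell type markers at 1 CPM or more. Some members of the lists are counted but not reported here by name. The members and lists were chosen with earlier results of these data known. Counts were drawn over 19444 genes with known changes at the depths of the main set. The draw held no length or GC trend of a library, unlike the data. The fit of Jak2VF LDL against vehicle recovered 13 of 50 genes changed 1.5-fold, 33 of 50 changed 2-fold and 43 of 50 changed 4-fold. It made 8 false calls there, a number that cannot be carried over to the real libraries.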

Additional observations from a re-analysis of the deposited data

Results flagged for a closer look

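The LDL effect in Jak2VF cells differed from that in WT cells, by the test of the difference itself, for 480 genes (2.47%). Of these, 58 were examined, chosen because they were called. In the fit of the 12 WT and Jak2VF libraries alone, 6 of these were still called and 52 were not. The values here are log2 differences in effect, Jak2VF minus WT. Among genes of antigen presentation and its neighbours in function, H2-Eb1 was at -2.38, H2-Aa at -2.05, Cd74 at -1.92, H2-Ab1 at -1.37, AW112010 at -1.76 and Clec7a at -0.78. Of genes that handle lipid, Angptl4 was at -1.52, Apoe at -1.32, Fabp4 at -0.89, Pnpla2 at -0.86, Pltp at -0.80, Cd36 at 0.69, Msr1 at 0.67 and Idi1 at 0.48. Genes of division were all higher: Clspn 1.36, Kif14 1.31, Polq 1.28, Kif11 1.25, Top2a 1.21, Pola1 1.08, Hmmr 1.07, Nusap1 1.05, Prc1 0.97, Ccne2 0.96, Bub1 0.92, Bub1b 0.87, Ccna2 0.87, Kif23 0.87, Ndc80 0.86, Ccnb1 0.68, Tpx2 0.64, Mcm4 0.63, Ttk 0.53, Mcm6 0.48, Aurkb 0.47, Mcm3 0.47 and Rrm1 0.47. Chemokine, cytokine and receptor genes were Ppbp at -1.14, Ccl6 at -0.90, Csf3r at -0.64, Ifngr1 at -0.51, Nlrp3 at 0.73 and Il10 at 1.45. The others were C1qc at -1.28, Col8a2 at -1.79, Hist1h4i at -1.79, Plbd1 at -1.76, Psmg4 at -1.75, Egln3 at -0.83, Adm at -0.54, Sesn2 at -0.49, Edem1 at 0.47, Tfrc at 1.13, Tal2 at 1.26, Rasgrp3 at 1.36, Etv1 at 1.37, Gm42793 at 1.97 and Arfgef3 at 1.97. The calls of Csf3r, Adm, Sesn2, Edem1, Rrm1, Idi1, Mcm6, Msr1, Ccnb1, Cd36 and Prc1 were lost with the length and GC trends removed.

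Against the mean effect of the other 3 genotypes, 21 genes differed (0.108%). Of these, 17 were examined, chosen because they were called. Lower effects were found in Lcn2 (-1.65), H2-Eb1 (-1.56), Il1f9 (-1.41), Fpr1 (-1.32), Esam (-1.24), Ly6c2 (-1.18), Cxcl1 (-1.15), Cxcl3 (-1.14) and Ptges (-0.57). Higher effects were found in Zranb3 (0.85), Gm43305 (0.79), Cd180 (0.77), Prps2 (0.68), Ptpn22 (0.67), Slco4a1 (0.66), Abcg1 (0.65) and Nusap1 (0.64). These contrasts share the 6 Jak2VF libraries, and the WT libraries enter both.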

How the results depend on the processing

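The number of genes called with LDL in Jak2VF cells (3532) was 4096 with DESeq2, 3654 with limma-voom, 2458 with the 6 Jak2VF libraries alone and 489 against a 1.5-fold threshold. Whether replicate numbers in the titles pair the libraries could not be decided. Correlations of the deviations were -0.227, 0.13 and 0.232 for like numbers and from -0.429 to 0.385 for unlike ones. A replicate block by title number gave 4191 calls, and a replicate block by the number in the description gave 543. By description, the Jak2VF vehicle library numbered 2 and the LDL library numbered 4 had no partner. Leaving out 1 library gave 2026 to 5035.
The difference between the Jak2VF and WT effects (480) gave 1807 with DESeq2, 729 with at least 50 counts, 722 with the length and GC trends removed, 794 with the length trend removed, 1963 without a filter, 22 with the 12 libraries alone, 1549 with a replicate block by title number and 0 with one by description number. Leaving out 1 library gave 96 to 3628. With the trends also removed it gave 314, 817 and 236 without Jak2VF LDL 1, 2 and 3, 287 and 1598 without Jak2VF vehicle 2 and 3, 295 and 1858 without WT LDL 1 and 2, and 1188, 264 and 220 without WT vehicle 1, 2 and 3.
The difference from the other 3 genotypes (21) gave 310 with DESeq2, 78 and 50 with both trends or length removed, 1024 without a filter, and 76 and 0 with the replicate block. Leaving out 1 library gave 0 to 1552. With the trends also removed it gave 37 and 1 without Jak2VF LDL 2 and 3, 2 and 745 without Jak2VF vehicle 1 and 3, 73, 224 and 71 without WT LDL 1, 2 and 3, and 157 without WT vehicle 1.
The vehicle difference (1857) gave 2839 with the trends removed, 1006 to 2061 in leave-out fits, and 3129, 2929 and 2943 without WT LDL 1, 2 and 3 with the trends removed.
The sign turned with the trends removed for Ftl1 (0.31) and Soat1 (-0.26). Leaving out 1 library as well turned it for Ftl1 (0.37 and 0.36), Soat1 (-0.32 and -0.34), Atp6v1h (-0.04 and -0.07) and Rela (0.23 and 0.22), and for the genotype difference of Edem1 (-0.03) and Rrm1 (-0.02 and -0.02). The 6 Jak2VF libraries alone with the trends removed turned it for Npc1 (-0.20). The cause of these shifts was not tested. The LDL effects of the 351 genes named by rule were compared across all alternatives, as pairs of 1 gene and 1 alternative fit. In 7907 pairs the effect kept direction and side of the threshold, in 666 it fell back across it and in 255 it crossed it. Of the other pairs, 281 were marked as moved and 11 as reversed in sign.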

Other observations

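Cyp1b1, Tiparp and Ahrr were called higher with LDL in Jak2VF cells. They are usually listed as targets of the aryl hydrocarbon receptor, a sensor of aromatic compounds. They were chosen after their values were seen, and a list of such targets was not tested. Cyp1a1 was looked up as well, and its values are not reported here. Cyp1b1 was at 238, 235 and 271 CPM with vehicle and 683, 594 and 725 with LDL (1.43 ± 0.13, adjusted p = 8.31e-08). Tiparp was at 34, 37.5 and 41.1 against 105, 89.5 and 93.4 CPM (1.35 ± 0.16, adjusted p = 2.76e-06). Ahrr, the repressor of the receptor, was at 5.27, 5.65 and 5.67 against 35, 29.2 and 31.7 CPM (2.53 ± 0.17, adjusted p = 1.04e-09). In WT cells the same genes rose by 0.90, 1.02 and 2.39.

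Monocyte markers split. Ccr2, the receptor that brings monocytes into tissue, fell from 151, 190 and 190 to 72.1, 54 and 67.7 CPM (-1.45 ± 0.17, adjusted p = 1.94e-06), while Vcan, a matrix proteoglycan, rose from 173, 209 and 297 to 823, 552 and 730 CPM (1.63 ± 0.25, adjusted p = 8.49e-05). Of the 11 markers, 3 were higher and 5 lower, and their sum lay between 3321 and 5004 CPM with vehicle and 3827 and 4351 with LDL. Slc11a1, a metal transporter of the phagosome, rose (0.83 ± 0.092, adjusted p = 1.32e-06), and Slc40a1, the iron exporter ferroportin, fell (-0.63 ± 0.14, adjusted p = 0.00382), within an iron list that had 4 of 12 genes higher and 1 lower.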
